A study of Arabidopsis thaliana with 6 samples.

Results

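The genes described here are nuclear genes for proteins of the thylakoid lumen and for factors that assemble or repair the photosystems, in seedlings of Arabidopsis thaliana. A list of 49 loci was drawn up by gene function, with earlier results of these data known. A gene was taken as measured where the platform annotation paired a probe set with it and with no other gene. This held for 23 of the 49, each with 1 probe set, out of 13286 genes named in this way and 22746 probe sets tested in all. Transcript levels came from 6 Affymetrix arrays, 3 of atr8 mutant seedlings and 3 of wild-type (WT) seedlings of the same accession, Wassilevskija. All seedlings, of both genotypes, were 10 days old, had been kept for 6 h in water purged of air as a low-oxygen stress, and had then recovered on agar medium for 22 h. The series was set up to study AtR8, a long non-coding RNA, in defence responses. The labels do not say how the atr8 allele was made or whether the 3 arrays came from 1 line, and the comparison of stressed with unstressed seedlings was not analysed here. The annotation named no probe set for AtR8, and the transcript that the mutation affects was not analysed here.

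The thylakoid lumen is the narrow space enclosed by the photosynthetic membrane of the chloroplast. Water is split on its face of photosystem II, plastocyanin carries electrons through it to photosystem I, and protons gather in it to drive ATP synthesis. Nearly all of its proteins are encoded in the nucleus, made in the cytosol and imported across the chloroplast envelope and then the thylakoid membrane. Besides subunits of the photosystems the lumen holds many relatives of PsbP and PsbQ, proteases, and immunophilins, which are enzymes of the FKBP and cyclophilin families that turn peptide bonds before proline. Several of these proteins act in building the photosystems or in replacing photosystem II subunits damaged by light. Genes of the list that carry only a locus number in the annotation are called here by locus and by protein family, and the family is general knowledge.

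The question put to the arrays was whether these transcripts stand at another level in atr8 than in WT seedlings after stress and recovery. None of the 23 genes passed the threshold (0 lower and 0 higher at an adjusted p under 0.05 by limma, adjusted over all probe sets). Over all tested probe sets 0.207% passed as lower and 0.712% as higher, 209 or 0.919% in all. At this threshold the background share is so small that a count of 0 among 23 genes shows little. The estimates nevertheless lay on one side: 22 of 23 genes had a lower estimate in the mutant, against 50.5% of all probe sets. The median over the 23 genes was −0.64 on the log2 scale, against −0.01 over all probe sets. The deposited arrays share the same distribution of values, which holds the median over all probe sets near 0. At an unadjusted p under 0.05 there were 11 of 23 genes lower and 0 higher, where 6.92% of all probe sets were lower and 7.11% higher. For 16 genes all 3 atr8 arrays lay below all 3 WT arrays and for 0 genes all lay above, against 11.0% and 11.2% of all probe sets. Among the 13859 probe sets at least as bright as the dimmest of the 23 genes, 1998 lay below in this way and 2049 above. At an unadjusted p under 0.05 by limma 1133 of these 13859 were lower and 1165 higher. The 209 calls over all probe sets were 0 without any one of atr8 replicates 2 and 3 or WT replicates 1, 2 and 3, and 314 without atr8 replicate 1. Those 314 were 156 higher and 158 lower, against 162 and 47 with all arrays. They rest on atr8 replicates 2 and 3, whose actin controls had 3′ to 5′ ratios far above those of the WT arrays, as given below. Of the 23 genes, 7 were lower at an unadjusted p under 0.05 without atr8 replicate 2 or without WT replicate 3. In these fits 2451 and 2580 of the 22746 probe sets were at that level, both directions together. In whole seedlings, fewer green cells and less RNA per cell cannot be told apart.

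**Figure D1:**
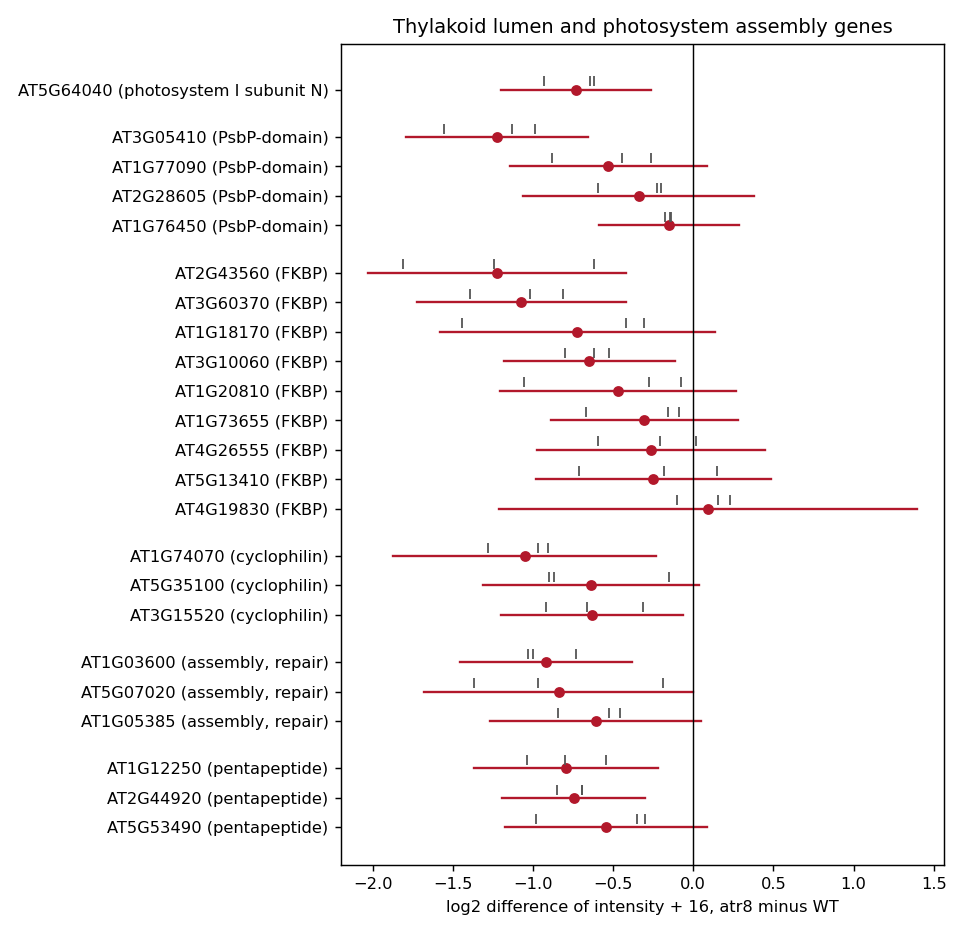
Log2 difference of intensity + 16, atr8 minus WT, for the 23 measured genes grouped by family (x axis); points are limma estimates, lines their 95% intervals, and the short grey ticks the 3 atr8 arrays, each minus the WT mean. Estimates run from −1.22 to 0.09, and 22 of the 23 points lie left of 0, while 12 of the 23 intervals reach across 0.

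Of the 8 listed lumen proteins that form part of a photosystem or carry electrons, only PSAN was measured. PSAN (AT5G64040) encodes subunit N of photosystem I, a small protein on the lumenal side of the complex near the place where plastocyanin docks. It was the brightest gene of the list, with intensities of 5603, 6966 and 6849 on the atr8 arrays, against 10684, 11232 and 10215 on the WT arrays. Every atr8 array was lower than every WT array, and the gap between the groups was wider than the spread within either. The log2 difference was −0.73 ± 0.19 (SE, n = 3 arrays per genotype), which is a ratio of atr8 to WT of 0.603, with an adjusted p of 0.187 by limma. The oxygen-evolving proteins PSBO1, PSBO2, PSBP-1, PSBQA and PSBQ-2 and the plastocyanin genes PETE1 and DRT112 had no such probe set and were not analysed here.

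Proteins of the PsbP domain family descend from the PsbP subunit, which holds calcium and chloride at the water-splitting site, but most of them are not part of photosystem II. Of 8 listed genes 4 were measured, and all 4 had lower estimates, against 50.5% of all probe sets. AT3G05410 had the smallest p of the 23 genes, with intensities of 111, 124 and 78.5 on the atr8 arrays, against 232, 294 and 261 on the WT arrays. The brightest atr8 array was thus well under the dimmest WT array, and the log2 difference was −1.22 ± 0.23 (95% interval −1.79 to −0.66, adjusted p = 0.0964 by limma). AT1G77090 read 576, 422 and 655 on the atr8 arrays, against 951, 700 and 738 on the WT arrays, and its groups were separate by a small margin (−0.53 ± 0.25, adjusted p = 0.412 by limma). AT2G28605 read 173, 232 and 228 on the atr8 arrays, against 186, 287 and 364 on the WT arrays, so that the groups overlapped. At the other end of the family AT1G76450 read 1004 to 1030 on the atr8 arrays and 1039 to 1204 on the WT arrays. These arrays did not overlap either, but the difference was small, at −0.15 ± 0.18, and its interval of −0.59 to 0.28 lay wholly above the estimate for AT3G05410. Whether AT3G05410 and AT1G76450 differ in their response was not tested. PPL1, PPD1, PPD5 and PPD6, and the lumenal NADH dehydrogenase-like and PsbQ-like genes PnsL1, PnsL2, PnsL3 and PQL3, were not analysed here.

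The FKBP family made up the largest share of the measured genes, 9 of 11 listed. In the lumen FKBPs are known both as folding enzymes and as parts of larger complexes. Of the 9 genes 8 had lower estimates, with a median of −0.47 on the log2 scale, and 3 were lower at an unadjusted p under 0.05. Over all probe sets these shares were 50.5% and 6.92%. AT2G43560 read 1158, 499 and 748 on the atr8 arrays, against 1826, 1774 and 1766 on the WT arrays. The WT arrays nearly coincided while the atr8 arrays were spread over more than a doubling, and the log2 difference was −1.22 ± 0.33 (adjusted p = 0.194 by limma). AT3G60370 read 434, 374 and 285 on the atr8 arrays, against 594, 873 and 891 on the WT arrays. All of its atr8 arrays were lower, by −1.07 ± 0.27 on the log2 scale (adjusted p = 0.173 by limma). AT3G10060 read 481, 449 and 395 on the atr8 arrays, against 593, 677 and 850 on the WT arrays, again without overlap (−0.65 ± 0.22, adjusted p = 0.28 by limma).

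The other 6 FKBP genes differed less or less evenly between the genotypes. AT1G18170 had a log2 difference of −0.72 ± 0.35 with no overlap, where atr8 replicate 3 read 148 and the other atr8 arrays 345 and 317, against 370 to 488 on the WT arrays. The groups overlapped for AT1G20810 (−0.47 ± 0.30), AT1G73655 (−0.31 ± 0.24), AT4G26555 (−0.26 ± 0.29) and AT5G13410 (−0.25 ± 0.30). AT4G19830 was the only measured gene of the 23 with a higher estimate, 0.09 ± 0.53. Its atr8 arrays read 94.6, 116 and 123, within the range of its WT arrays, which read 36.5, 201 and 131. It was also the dimmest gene of the list, and the SE of its difference was the largest of the 23. FKBP13 and PnsL4, an FKBP that is also a subunit of the NADH dehydrogenase-like complex, were not analysed here.

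Cyclophilins, the second immunophilin family, had 3 of 5 listed genes measured, all with lower estimates and 2 of them at an unadjusted p under 0.05. Over all probe sets 50.5% had a lower estimate and 6.92% were lower at that level. AT1G74070 read 169, 127 and 161 on the atr8 arrays, against 478, 209 and 362 on the WT arrays. The atr8 arrays agreed closely and lay under a widely spread WT group, which left the log2 difference at −1.05 ± 0.33 (adjusted p = 0.257 by limma). AT3G15520 read 307, 255 and 396 on the atr8 arrays, against 470, 558 and 466 on the WT arrays (−0.63 ± 0.23, adjusted p = 0.313 by limma). AT5G35100 read 781, 470 and 460 on the atr8 arrays, against 756, 981 and 889 on the WT arrays. Here atr8 replicate 1 lay within the WT range and only replicates 2 and 3 lay below it (−0.64 ± 0.28, adjusted p = 0.375 by limma). CYP38, which is needed to assemble photosystem II, and Pnsl5 were not analysed here.

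Among factors of photosystem assembly and repair 3 of 6 listed genes were measured. PSB27 (AT1G03600) encodes a lumenal protein that binds photosystem II while it is being repaired. It read 3917, 3244 and 3174 on the atr8 arrays, against 5469, 6571 and 7664 on the WT arrays. The groups were far apart at a high signal, with a log2 difference of −0.92 ± 0.22, a ratio of atr8 to WT of 0.528, and an adjusted p of 0.157 by limma. LPA19 (AT1G05385), a relative of PSB27, acts in maturing the D1 subunit of photosystem II. LPA19 was dimmer and its groups nearly met, at 258, 246 and 194 on the atr8 arrays, against 365, 269 and 475 on the WT arrays (−0.61 ± 0.27, adjusted p = 0.386 by limma). AT5G07020 read 1925, 841 and 1116 on the atr8 arrays, against 1936, 2134 and 2557 on the WT arrays. Its atr8 replicate 1 was almost level with the lowest WT array, and the difference of −0.84 ± 0.34 (adjusted p = 0.356 by limma) came mostly from atr8 replicates 2 and 3. TLP18.3, PSB33 and HCF136 were not analysed here, nor were the lumenal proteases DEG1, DEG5 and DEG8.

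The last 3 measured genes encode lumen proteins of the pentapeptide repeat family. In all 3 the atr8 arrays lay below the WT arrays, against 11.0% of all probe sets. AT2G44920 read 578, 518 and 578 on the atr8 arrays, against 865, 1012 and 968 on the WT arrays. Both groups were tight, and the log2 difference was −0.75 ± 0.18 (adjusted p = 0.168 by limma). AT1G12250 read 690, 575 and 486 on the atr8 arrays, against 1036, 1186 and 848 on the WT arrays (−0.79 ± 0.23, adjusted p = 0.229 by limma). AT5G53490 read 922, 891 and 570 on the atr8 arrays, against 1023, 1144 and 1269 on the WT arrays, with replicate 3 the farthest below (−0.55 ± 0.26, adjusted p = 0.408 by limma). TL29, a peroxidase-like lumen protein, was not analysed here.

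**Figure D2:**
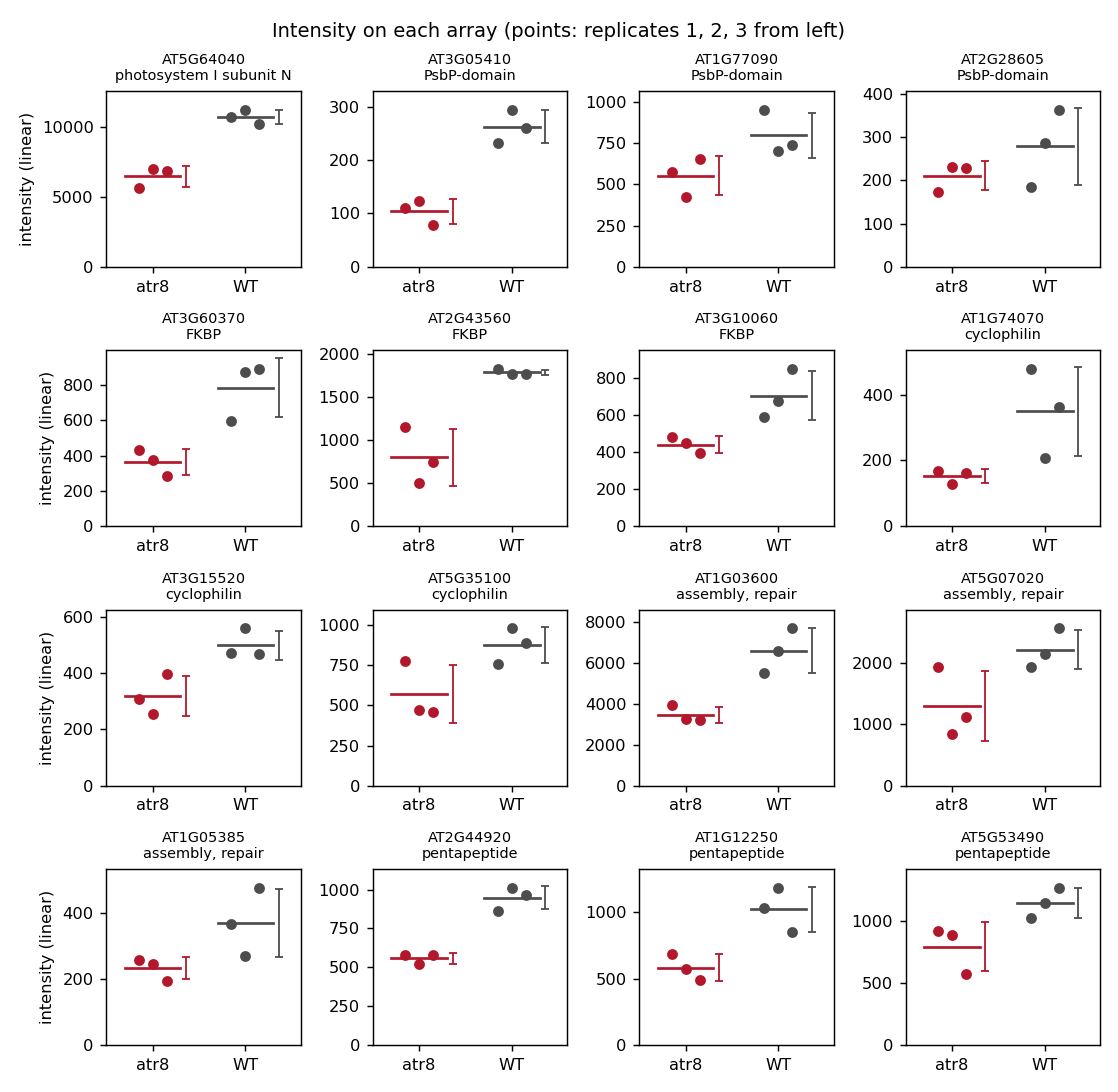
Deposited intensity (linear y axis from 0, a separate scale in each panel) of 16 genes on each array, atr8 left and WT right; points are replicates 1 to 3, horizontal bars group means, and error bars ± 1 SD (n = 3). The panels show PSAN and the 3 genes with the smallest p in each family, a choice that favours separate groups where a family has more measured genes. In 14 panels the 3 atr8 points lie below the 3 WT points, and AT2G28605 and AT5G35100 are the panels in which the groups overlap. Of all 23 measured genes 16 lie below in this way, against 11.0% of all probe sets.

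The size of the difference varied within families as well as between them. Of the 23 genes 4 had a log2 difference at or below −1: AT2G43560, AT3G05410, AT3G60370 and AT1G74070. These 4 belong to 3 families and make up 17.4% of the measured genes, against 6.21% of all probe sets with such a difference. At or below −0.5 there were 16 genes, 69.6% of those measured, against 19.5% of all probe sets. The medians of the families with more than 1 measured gene ran from −0.43 for PsbP-domain proteins to −0.84 for assembly and repair factors, each over 3 to 9 genes.

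Other nuclear photosynthesis genes, listed by function with earlier results of these data known, gave estimates in the same direction. Of 98 such genes 16 were measured, and 0 passed the threshold in either direction. Lower estimates were found for 15 of the 16, with a median of −0.49 on the log2 scale, and 9 were lower at an unadjusted p under 0.05. The smallest p-values were those of LHCB4.2 and LHCB4.1, genes of CP29, an inner antenna protein of photosystem II. LHCB4.2 read 822, 612 and 557 on the atr8 arrays, against 1779, 2490 and 1716 on the WT arrays (−1.56 ± 0.26, adjusted p = 0.07 by limma), a larger difference than in any of the 23 genes. LHCB4.1 differed by −1.06 ± 0.19. The remaining measured antenna gene, LHCB4.3, also a CP29 gene and named after its values were seen, read 1954, 1948 and 1074 on the atr8 arrays, against 1768, 1470 and 1690 on the WT arrays, and its groups overlapped (−0.03 ± 0.29, adjusted p = 0.97 by limma). Among subunits on the membrane and stromal side, PSAE-1 of photosystem I stood at −0.78 ± 0.17, close to PSAN, and PSBY of photosystem II at −0.92 ± 0.21.

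In the Calvin cycle RCA, which encodes Rubisco activase, stood at −0.85 ± 0.21 and PRK, which encodes phosphoribulokinase, at −0.47 ± 0.17. Of 4 measured assembly factors outside the lumen LPA2, which acts on photosystem II, stood at −0.95 ± 0.22 and AT1G22700 at −1.06 ± 0.37. Smaller differences were found for ATPC1, the gamma subunit of the chloroplast ATP synthase, at −0.31 ± 0.19, and for AT2G26500 of the cytochrome b6f complex at −0.07 ± 0.18. AT5G28750, the only measured gene of 11 listed for protein targeting to the thylakoid, read 2242 to 2410 on the atr8 arrays, against 2114 to 2520 on the WT arrays (0.04 ± 0.18). Of 14 listed regulators of chloroplast genes 0 were measured. Both lists had mostly lower estimates, with medians of −0.64 for the 23 genes and −0.49 for the 16 others. A difference between the lists was not tested.

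The arrays were also read one by one, because the mutant arrays were not alike in their control probe sets. For actin the signal at the 3′ end divided by that at the 5′ end was 2.13, 28.9 and 19.6 on atr8 replicates 1, 2 and 3, against 2.17 to 2.66 on the WT arrays. For GAPDH it was 0.996, 1.75 and 1.70 on the atr8 arrays, against 0.794 to 0.844 on the WT arrays. On atr8 replicate 1 the actin ratio lay just under the WT range and the GAPDH ratio above it. On this array the median of the 23 genes stood −0.59 from the WT mean on the log2 scale. It stood −0.62 on replicate 2 and −0.80 on replicate 3. The median over all probe sets lay between −0.02 and 0.01 on these arrays, near 0 where the shared distribution of the deposited values holds it. Of the 23 genes 20 lay below the lowest WT array on atr8 replicate 1, 19 on replicate 2 and 18 on replicate 3, against 29.4%, 30.9% and 30.3% of all probe sets. The part of the lost 5′ signal in the values of single genes was not tested. With atr8 replicate 1 alone against the WT arrays 22 of 23 estimates were lower, as single differences with no replicate in the mutant. In that fit limma takes the spread from the WT arrays only and assumes that the mutant array varies like them, and 3 of the 23 genes were lower at an unadjusted p under 0.05, against 4.82% of all probe sets.

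**Figure D3:**
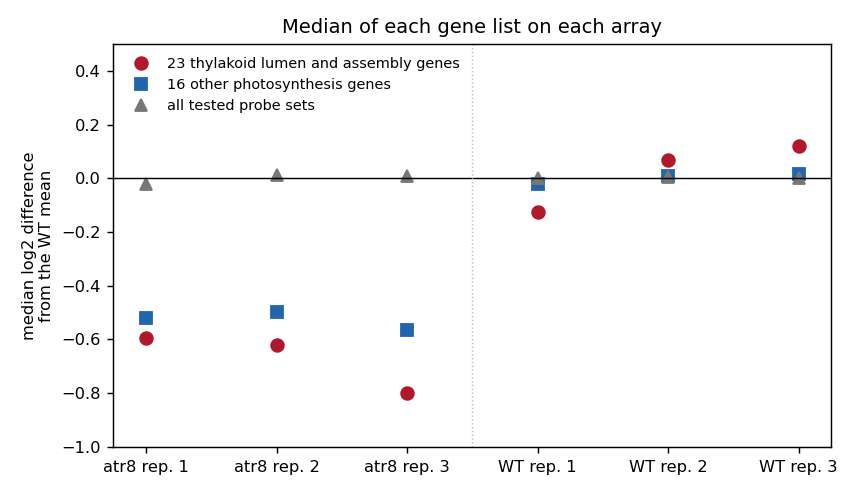
Median log2 difference from the WT mean (y axis) on each array (x axis, atr8 left of the dotted line) for the 23 lumen and assembly genes, 16 other photosynthesis genes and all tested probe sets. The red circles sit at −0.59, −0.62 and −0.80 on the atr8 arrays and between −0.13 and 0.12 on the WT arrays. The grey triangles stay near 0 on every array, where the shared distribution of the deposited values holds them.

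Gene by gene the atr8 arrays did not move in step. Replicate 1 was the highest atr8 array for 12 of the 23 genes and the lowest for 7. Replicate 3 was the lowest for 9. For AT5G35100 and AT5G07020 replicate 1 was by far the highest atr8 array, and for PSAN it was the lowest. Green tissue was present in both genotypes, since RCA read 16016 to 21655 on the atr8 arrays, against 30822 to 33207 on the WT arrays. Of 15 listed root markers 2 were measured, the root hair expansins EXPA7 and EXPA18, whose summed intensity was 419 to 768 on the atr8 arrays, against 854 to 925 on the WT arrays. The part of seedling makeup in the lower values of the 23 genes was not tested.

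The call for single genes depended on how the variance was modelled. With a trend of variance on intensity and a robust prior, which lends bright genes a smaller expected variance, 7 of the 23 genes were lower at an adjusted p under 0.05 by limma, against 2.84% of all probe sets. They were PSB27, PSAN, AT2G43560, AT3G60370, AT1G12250, AT2G44920 and AT3G05410, with adjusted p-values from 5.12e-05 for PSB27 to 0.0472 for AT3G05410. The SE was not smaller for all 7 of them. It rose from 0.23 to 0.37 for AT3G05410, a dim gene, and from 0.18 to 0.19 for AT2G44920, and fell for the others. The unadjusted p by limma rose from 0.00186 to 0.00297 for AT3G05410 and fell from 0.00647 to 0.000643 for AT2G44920. An adjusted p also depends on the p-values of all probe sets, of which 1459 passed in this fit and 209 as reported. With the dimmest 30% of probe sets left out AT3G05410 alone passed (adjusted p = 0.0432 by limma, against 0.484% of all probe sets lower). The estimates themselves were the same in both settings, and also with the replicate number as a block. Another quantile normalization or a median centring left them nearly unchanged, since the arrays already shared the same distribution. These settings therefore say little about the direction of an estimate. Under the 17 settings tried AT4G19830 ranged from −0.50 to 0.53 and AT4G26555 from −0.49 to 0.02, and the other 21 genes had lower estimates under each.

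**Figure D4:**
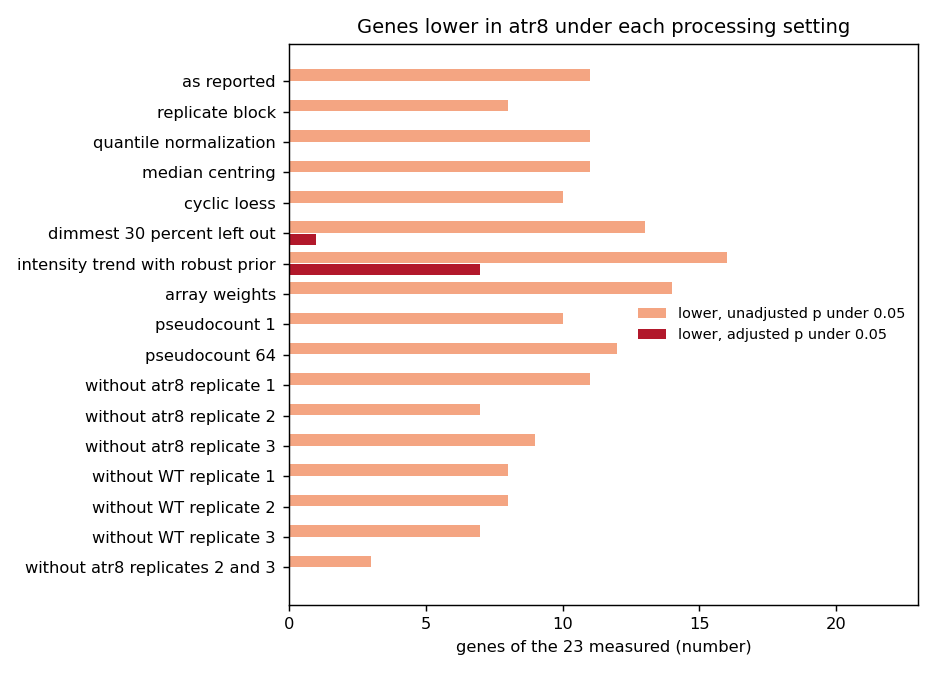
Number of the 23 measured genes lower in atr8 (x axis) under each processing setting (rows); light bars count an unadjusted p under 0.05 and dark bars an adjusted p under 0.05 by limma. Dark bars appear in 2 rows, with 7 genes under an intensity trend with a robust prior and 1 gene with the dimmest probe sets left out. The longest light bar, 16 genes, is that of the trend with a robust prior. In that fit 4099 of 22746 probe sets were at the same level, both directions together. The row without atr8 replicates 2 and 3 rests on 1 mutant array.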

How the data were processed

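Per the labels' protocols, biotin-labelled cRNA made from total RNA of whole seedlings was hybridized to Affymetrix arrays. The deposited values are linear intensities. Sorted by size, the values of the 6 arrays were equal within 0.02, so the authors deposited quantile-normalized intensities. The software that made them is not given in the sources used here, and no detection calls were used. The number of arrays limits the precision, and no filter on low values was applied.

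The tests ran over 22746 of 22810 probe sets, without 64 controls. In the platform annotation 13513 probe sets had 1 gene, 503 had several and the rest are unnamed here. Of those with 1 gene, 13436 matched a locus of RefSeq assembly TAIR10.1, used for names only. No sequences were used.

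The deposited intensities were transformed to log2(intensity + 16), which understates differences of dim genes. Limma (version 3.58.1, R 4.3.3) then compared atr8 with WT arrays in a linear model of genotype alone with moderated variances. P-values are two-sided, with Benjamini-Hochberg adjustment over all tested probe sets and a threshold of 0.05. The code was tested on simulated data.

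The genes, the lists and the settings were chosen with earlier results of these data known. Values on every array were given for PSAN and for the 3 genes with the smallest p in each family, and at most 2 genes with the smallest p stand for each other photosynthesis list. Genes named outside this rule complete an account of all 23. The alternatives tried are the settings named in the plot of genes lower in atr8 by processing setting. The series calls the arrays of a genotype biological replicates.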

Additional observations from a re-analysis of the deposited data

Results flagged for a closer look

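Outside the tested probe sets, the array controls for actin and GAPDH had higher 3′ to 5′ ratios on atr8 replicates 2 and 3 than on any WT array. For actin the ratio was 28.9 on atr8 replicate 2 and 19.6 on atr8 replicate 3, against 2.17 to 2.66 on the WT arrays. For GAPDH it was 1.75 and 1.70 on these arrays, against 0.794 to 0.844 on the WT arrays, and on atr8 replicate 1 it was 0.996, also above them. The part of this signal in the lower values of single genes on atr8 replicates 2 and 3 was not tested.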

How the results depend on the processing

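The median of the 23 genes stayed below 0 under every setting tried. It ran from −0.59 without atr8 replicates 2 and 3, which leaves 1 mutant array, to −0.71 without WT replicate 1. With 64 added to the intensities it was −0.60. With the dimmest 30% left out, a trend and robust prior, or the replicate number as a block it was −0.64 as reported, because these settings left the estimates unchanged. Leaving out 1 array at a time gave medians of −0.71 to −0.62. Counts past the adjusted threshold moved more, and the cause was not tested. Over all probe sets limma called 209 as reported, 359 with the dimmest 30% left out, 1459 (813 higher, 646 lower, against 162 and 47) with a trend and robust prior, 99 with 1 added and 336 with 64 added. Without 1 array it called 0 to 314, and without atr8 replicates 2 and 3 where the spread comes from the WT arrays only, it called 0, with 2194 at an unadjusted p under 0.05. Of the 23 genes 0 were called as reported, 1 with the dimmest 30% left out and 7 with a trend and robust prior. Of the 16 other photosynthesis genes 0 were called as reported, 2 with the dimmest 30% left out, 8 with a trend and robust prior, 1 with array weights and 2 with 64 added. With 1 array left out, 0 to 0 of either list were called. With the replicate number as a block limma called 0 probe sets. At an unadjusted p under 0.05 there were 2769 of 22746 probe sets, both directions together, and 8 of the 23 genes were lower. Deviations of same-numbered arrays correlated at only 0.0045 to 0.0141, though each array correlated best with its own number, so the numbers were not taken as pairs. Each gene had 1 probe set, so averaging probe sets changed nothing. Signal over background could not be judged without detection calls.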

Other observations

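The WT arrays were not level for these genes either. WT replicate 1 was the lowest WT array for 13 of the 23 genes, and the median of the list on it stood −0.13 from the WT mean on the log2 scale, against 0.07 and 0.12 on WT replicates 2 and 3. Without WT replicate 1 the median difference of the list was −0.71, and all 23 estimates were lower.

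The difference between brighter and dimmer genes varied with the array. The 12 brighter genes of the 23 had a median log2 difference of −0.74 and the 11 dimmer ones −0.61. From the WT mean the brighter genes stood −0.58, −0.86 and −0.93 on atr8 replicates 1, 2 and 3, and the dimmer genes −0.59, −0.52 and −0.32. The groups were thus level on replicate 1 and apart on replicates 2 and 3. Whether this goes with the actin ratios of the arrays, or holds for other genes of like brightness, was not tested. Across the 23 genes the Spearman correlation of mean intensity with the log2 difference was −0.24, given as a description, since all genes share the same 6 arrays.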
